A study of Mus musculus with 10 samples.

Results

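The histone genes of the mouse were followed through spermatogenesis as a family of 92 genes, out of 28125 in the scRNA-seq matrix. Members were all genes whose symbol begins with Hist1h to Hist4h, H1f, H2a, H2b, H3f, H3c, H4c or H4f, so the rule uses names and no measured value, and all 92 were also in the scATAC-seq matrix. They comprised 59 replication core genes (H2A, H2B, H3 and H4 genes of the Hist1 to Hist4 loci), 5 replication linker genes (Hist1h1a to Hist1h1e), 10 replacement variants, 17 germline variants and 1 antisense RNA, H3f3aos. The germline class held testis genes together with H1foo, the linker histone of the oocyte.

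Testis nuclei came from wild-type (WT) mice at 11, 17 and 25 days postpartum (dpp) and from adults of 8 weeks, either Cre/+ or Nfya-CKO. Nfya-CKO mice carried Nfya fl/fl and Stra8-Cre, which acts in premeiotic germ cells and removes part of Nfya, the gene for a subunit of the CCAAT-binding factor NF-Y. Cre/+ mice carried Stra8-Cre alone. RNA and open chromatin were profiled together in nuclei, although not every nucleus gave both, and each condition has a single library (1 per assay), so no difference given here has a replicate check, no test was run, and cells are not replicates.

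The deposited matrices give 1 value per gene for each of 13 cell populations, pooled over libraries. The 9 germ cell populations were undifferentiated and differentiating spermatogonia (SpG), preleptotene (pL), early leptotene to zygotene (eL/L/Z), leptotene to early pachytene (L/Z/eP), mid and late pachytene (mP/lP) and diplotene (D) spermatocytes, round spermatids (RS) and elongating spermatids (ES). The remaining 4 were Sertoli cells, other somatic cells, unknown cells and SpG of the library labelled Nfya-CKO. RNA levels are mean UMIs per 10000 UMIs of a cell. They were not divided by gene length except where this is stated, so levels of different genes are not ranked. In such pooled means, fewer cells with a transcript and less of it per cell cannot be told apart.

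Libraries held 3746 to 18039 scRNA-seq cells and 30227701 to 64967271 UMIs. Populations ranged from 99 cells (unknown) to 8107 cells (L/Z/eP). Of undifferentiated SpG, 7.90% came from Cre/+ and most of the rest from juvenile WT mice, whereas 84.6% of differentiating SpG and 99.7% of ES came from Cre/+. Of pL, 59.3% came from 11 dpp and 38.2% from 17 dpp WT mice. WT mice at 25 dpp gave 93.7% of L/Z/eP, and Cre/+ gave 77.1% of RS. Stage, age and library cannot be told apart for these populations or for steps between them. Among the 9 germ cell populations, the summed markers of a stage were highest in the population of that name, except that those of differentiating SpG were highest in pL (sum 7.97 against 5.19 UMIs per 10000). The undifferentiated markers summed to 16.4 in control undifferentiated SpG and 16.7 in SpG of the library labelled Nfya-CKO, but single markers differed between them: Zbtb16 was 8.74 and 4.15, Id4 0.682 and 0.290, and Uchl1 5.88 and 11.0. Single markers could also be highest in another population.

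Replication histone genes supply the nucleosomes of newly copied DNA in S phase, from messenger RNAs that end in a stem-loop instead of a poly(A) tail. Replacement variants such as H3.3, H2A.Z and H2A.X are encoded outside the clusters, mostly by polyadenylated messenger RNAs, and are made throughout the cell cycle. In the testis, germline variants such as TH2A, TH2B and H1t join them, and most histones later give way to transition proteins and protamines. The RNA libraries were primed with poly(T), which bears on every level of a transcript without a tail.

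The stem-loop is shown because most replication genes and few other members carry it. It was found in annotated coding transcripts (GENCODE vM21, GRCm38) of 43 of 64 replication genes, of 1 of 10 replacement variants (H2afx) and of 2 of 17 germline variants (Hist1h1t and H2bfm). The 3 most common forms, found in 26, 7 and 5 replication genes, are given 5′ to 3′ as DNA. H2bfm carries the first of them and Hist1h1t the third.
form in 26 replication genes: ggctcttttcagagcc
form in 7 replication genes: ggcccttttcagggcc
form in 5 replication genes: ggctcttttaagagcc

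Promoters are shown for 3 genes on which results below turn, as the 150 bases before the RefSeq start (GRCm38), 5′ to 3′ on the strand of the gene. Capitals mark CCAAT and the octamer ATTTGCAT on either strand and TATAAA on the strand of the gene. Hist1h2aa, the TH2A gene (chr13:23934287-23934436, plus strand), faces the TH2B gene Hist1h2ba across this stretch. Hist1h2bp, a core H2B gene (chr13:21787338-21787487, plus strand), had its highest RNA level in RS. Hist1h4a, a core H4 gene (chr13:23761250-23761399, minus strand), had the largest scATAC-seq ratio between SpG of the library labelled Nfya-CKO and control SpG.
Hist1h2aa: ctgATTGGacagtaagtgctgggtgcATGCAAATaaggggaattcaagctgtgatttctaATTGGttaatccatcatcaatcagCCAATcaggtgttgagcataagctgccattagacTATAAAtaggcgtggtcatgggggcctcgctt
Hist1h2bp: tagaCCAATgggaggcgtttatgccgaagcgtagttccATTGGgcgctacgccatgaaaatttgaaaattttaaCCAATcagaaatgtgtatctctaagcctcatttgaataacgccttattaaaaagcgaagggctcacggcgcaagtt
Hist1h4a: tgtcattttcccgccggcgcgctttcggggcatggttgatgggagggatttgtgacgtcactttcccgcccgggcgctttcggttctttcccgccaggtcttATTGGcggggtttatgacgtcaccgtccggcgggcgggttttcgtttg

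A RefSeq promoter of 250 bases before to 50 after the start was matched for 83 of 92 members. CCAAT on either strand was in 49 of 58 replication promoters (84.5%), against 10248 of 27025 promoters of all genes (37.9%). Among core genes it was in 16 of 16 H2A, 15 of 15 H2B and 10 of 10 H3 promoters, but in 3 of 12 H4 promoters. At least 2 matches were in 40 of 53 core promoters (75.5%), against 12.2% of all promoters. The octamer was in 6 of 16 core H2A and 5 of 15 core H2B promoters and in 0 of 10 H3 and 0 of 12 H4 promoters, against 1.75% of all. TATAAA was in 28 of 58 replication promoters (48.3%), against 8.88% of all. CCAAT was further in 6 of 9 replacement variant and 7 of 16 germline variant promoters, among the latter Hist1h2aa, Hist1h2ba and Hist1h1t. A match describes letters, not a bound site, and genes that face each other share part of these windows.

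The Hist1 cluster on chromosome 13 (chr13:21715763-23934851) held 54 members, the Hist2 cluster on chromosome 3 (chr3:96219865-96270132) 10, and 11 germline variants lay on chromosome X. Annotated starts of 13 pairs lay head to head within 500 bases, of which 12 were an H2A gene facing an H2B gene and the other was H3f3a facing H3f3aos. The scATAC-seq levels of both genes differed by a median of at most 0.1 on the log2 scale in 10 of the 13 pairs, so each of these pairs is close to a single measurement of accessibility.

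Replacement variants gave most histone UMIs in all 9 germ cell populations. Their summed RNA level was 14.5 in undifferentiated SpG, 14.2 in differentiating SpG, 20.5 in pL, 15.7 in eL/L/Z, 14.7 in L/Z/eP, 19.0 in mP/lP, 12.0 in D, 9.46 in RS and 10.5 in ES. It was thus highest in pL, with a further high value in mP/lP, and lowest in RS. H3f3b carried much of this course: without it the sum was 10.3 in undifferentiated SpG, 10.6 in pL, 9.81 in mP/lP and 4.99 in RS, so that undifferentiated SpG and pL were nearly level. The sum of the 59 replication core genes was 0.428 in undifferentiated SpG, 0.524 in differentiating SpG, 0.404 in pL, 0.531 in eL/L/Z, 0.658 in L/Z/eP, 0.596 in mP/lP, 0.775 in D, 1.02 in RS and 1.47 in ES. The core sum was lowest in pL, the stage of premeiotic S phase, and highest in postmeiotic ES. Hist1h2bc, which was highest in other somatic cells, gave 0.469 of the ES sum. Without it the core sum was 0.365 in undifferentiated SpG, 0.362 in pL, 0.977 in RS and 1.004 in ES, so that RS and ES were nearly level, as were undifferentiated SpG and pL.

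Genes of DNA replication had another course. A list of 20 S phase genes had a summed RNA level of 18.2 in undifferentiated SpG, 26.1 in pL and 5.09 in ES, and 16 of the 20 were highest in pL. Slbp, which binds the histone stem-loop, was 0.716 in undifferentiated SpG, 1.79 in pL and 0.352 in ES. Npat, the coactivator of replication histone genes, was also highest in pL (1.35). Of the 8 measured genes for 3′ end processing and transcription of replication histones, these and Casp8ap2 (3 of 8) were highest in pL. Lsm10 and Lsm11, of the processing complex, were highest in undifferentiated SpG (0.25 and 0.264, against 0.158 and 0.186 in pL), and the other 3 at other stages.

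The summed RNA level of the 17 germline variants was 0.0787 in undifferentiated SpG, 0.721 in differentiating SpG, 0.109 in pL, 0.142 in eL/L/Z, 0.240 in L/Z/eP, 0.329 in mP/lP, 0.781 in D, 1.82 in RS and 6.31 in ES. It climbed from pL to ES, and the value in differentiating SpG stood out of that order. Germline variants made up 0.516% of histone UMIs in pL, 14.6% in RS and 33.9% in ES, while replacement variants made up 96.6%, 75.8% and 56.5%. The linker sum stayed between 0.0698 in mP/lP and 0.252 in ES. Without Hist1h1c, also highest in other somatic cells, it was highest in pL (0.109) and came to 0.0573 in ES. In other somatic cells the core sum was 2.36, above that of each germ cell population.

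**Figure D1:**
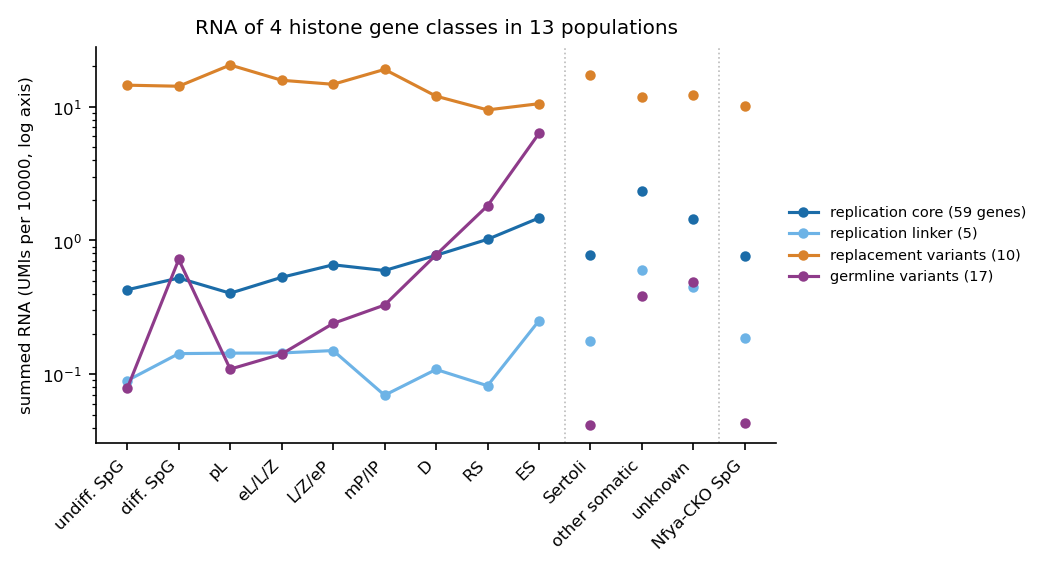
Summed RNA level (UMIs per 10000, log axis) of the 4 classes in the germ cell populations and in the 4 remaining populations, with no error bars because each condition is 1 library. Germline variants climb from 0.109 in pL to 6.31 in ES, and replacement variants stay between 9.46 and 20.5 in germ cells.

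A mean RNA level of at least 0.05 over the 13 populations was reached by 17 members: all 10 replacement variants, 2 germline variants, 3 core genes, 1 linker gene and H3f3aos. Of these 17, 8 had their highest germ cell level in RS or ES, against 33.1% of all genes past this minimum. The 8 were the 4 replication genes, both germline variants, H3f3aos and the replacement variant H2afj. The other replacement variants were highest in undifferentiated SpG (3), differentiating SpG (1), pL (3) or mP/lP (2).

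H3f3b encodes H3.3, the H3 variant deposited outside replication. Its RNA level was 4.12 in undifferentiated SpG, 5.47 in differentiating SpG, 9.89 in pL, 6.67 in eL/L/Z, 6.25 in L/Z/eP, 9.17 in mP/lP, 5.40 in D, 4.47 in RS and 3.87 in ES, with high values in pL and mP/lP. H3f3a, which encodes the same protein, was 1.27, 0.621, 1.94, 1.06, 0.737, 0.700, 0.639, 0.656 and 0.284 in the same order. H3f3a was likewise highest in pL but had no second high value in mP/lP. Per kilobase of the longest annotated transcript, the mean level over 13 populations was 2.26 for H3f3b and 0.317 for H3f3a. H3f3aos, annotated opposite H3f3a, was highest in RS (0.0997), and since the use of strand in counting is not stated its reads and those of H3f3a may not be separated.

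H2afx encodes H2A.X, which is phosphorylated at DNA breaks and over the sex chromosomes of pachytene cells. Its RNA level was 0.600 in undifferentiated SpG, 0.977 in differentiating SpG, 0.784 in pL, 1.28 in eL/L/Z, 1.70 in L/Z/eP, 2.86 in mP/lP, 1.32 in D, 0.904 in RS and 1.51 in ES, so it was highest in mP/lP. Nasp, a chaperone of H3 and H4, was also highest in mP/lP (13, against 2.52 in undifferentiated SpG). Brdt, a bromodomain protein that takes part in histone removal, was highest there as well (5.07 against 0.967).

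MacroH2A genes, whose products carry a large extra domain and are known from silent chromatin, were high before differentiation. H2afy was 2.99 in undifferentiated SpG, 1.06 in differentiating SpG, 0.865 in pL, 2.28 in mP/lP and 1.59 in ES. H2afy2 was 0.904 in undifferentiated SpG, 0.132 in differentiating SpG, 0.102 in pL, 0.171 in eL/L/Z, 0.0993 in L/Z/eP, 0.0771 in mP/lP, 0.264 in D, 0.663 in RS and 0.169 in ES. H2afy2 thus had its high values at the start of the lineage and in RS. The H2A.Z genes differed from each other: H2afv was 2.98 in undifferentiated SpG, 2.97 in pL and 0.817 in RS, while H2afz ranged over germ cells from 0.116 in RS to 0.301 in mP/lP.

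The replacement linker genes were higher in differentiating than in undifferentiated SpG, the opposite of macroH2A. H1fx was 0.683 in undifferentiated SpG, 1.89 in differentiating SpG, 2.38 in pL and 0.548 in RS. H1f0, which encodes H1.0, a linker known from resting and differentiated cells, was 0.541, 1.40, 1.13 and 0.289 in these populations. H2afj was between 0.0828 in mP/lP and 0.277 in ES among germ cells and 0.532 in other somatic cells.

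**Figure D2:**
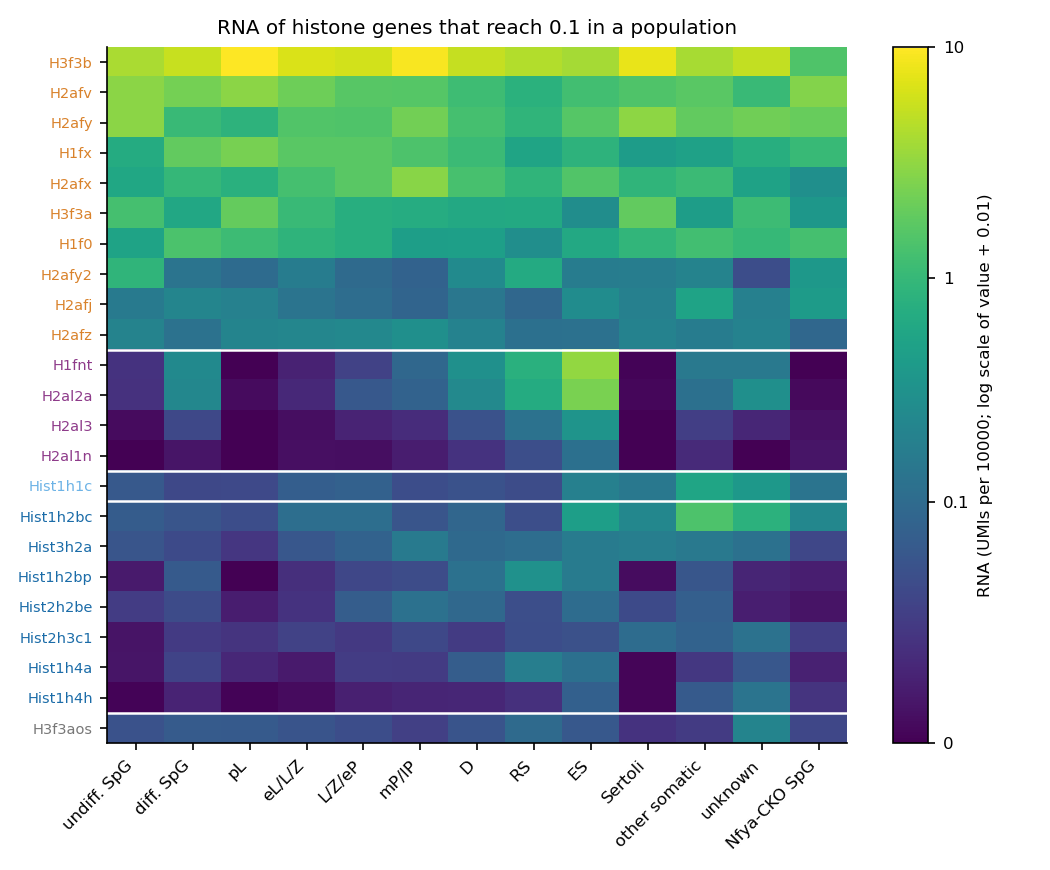
RNA level of the 23 members that reach 0.1 UMIs per 10000 in at least 1 population, as colour on a log scale, with genes in rows grouped by class and the 13 populations in columns. Replacement variants are present in all columns, and H1fnt, H2al2a, H2al3 and H2al1n are brightest in ES.

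H1fnt encodes the linker histone of spermatids, which takes part in nuclear condensation. Its RNA level was 0.0176 in undifferentiated SpG and 0.255 in differentiating SpG, it was listed at 0 in pL, and it was then 0.00910 in eL/L/Z, 0.0291 in L/Z/eP, 0.0912 in mP/lP, 0.305 in D, 0.788 in RS and 3.25 in ES. H2al2a, the gene of the spermatid variant H2A.L.2, was 0.0169, 0.231, 0.00211, 0.0123, 0.0562, 0.0770, 0.25, 0.693 and 2.44 from undifferentiated SpG to ES. Both genes followed 1 course, and the genes whose products replace histones were highest in ES as well, Tnp1 at 18.5, Tnp2 at 49.3, Prm1 at 40.8 and Prm2 at 9.74. H2al3 reached 0.349 and H2al1n 0.119 in ES. These 2 genes and Hist1h2aa, Hist1h2ba, Hist1h1t, H2bfm, Hist1h3a and Hist1h2bq are outside the naming rule in part or in whole and were chosen after their values were seen.

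The germline genes of the Hist1 cluster had low levels and other peaks. Hist1h2aa (TH2A) was 0.00206 in undifferentiated SpG, 0.0793 in differentiating SpG, 0.0218 in pL, 0.0285 in eL/L/Z, 0.0331 in L/Z/eP, 0.0305 in mP/lP, 0.0394 in D, 0.0165 in RS and 0.0266 in ES. Hist1h2ba (TH2B) was 0.00439 in undifferentiated SpG and highest in mP/lP (0.0465). Hist1h1t, which encodes H1t of pachytene spermatocytes, was 0.00186 in undifferentiated SpG, 0.0264 in differentiating SpG, 0.00202 in pL and 0.0300 in mP/lP, its highest value. In undifferentiated SpG, Hist1h2aa and Hist1h1t were below the value of 3 UMIs in cells of median depth (0.00250). H2bfm, an H2B gene, was highest in pL (0.0535).

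RNA of spermatid genes moved with the levels of H1fnt and H2al2a in differentiating SpG. The summed level of Prm1, Tnp1 and Tnp2 was 0.445 in undifferentiated SpG, 8.65 in differentiating SpG, 0.0149 in pL and 109 in ES, so that differentiating SpG had 7.96% of the ES level, and all 3 genes were higher there than in pL. The same percentage of the ES value is 0.259 for H1fnt, beside 0.255 measured, and 0.194 for H2al2a, beside 0.231 measured. For H1f0 it is 0.0503, beside 1.40 measured. Round spermatid markers had 19.0% of their RS level in differentiating SpG, and that percentage of the RS value is 0.150 for H1fnt and 0.132 for H2al2a. The part of spermatid RNA in these values was not tested.

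Replication genes were sparse in germ cells. Of 64, 54 stayed under 0.05 UMIs per 10000 in all 9 germ cell populations and 35 were listed at 0 in at least 1 of them. Hist1h2bc, a core H2B gene (chr13:23684199-23692908), was 0.0639 in undifferentiated SpG, 0.0515 in differentiating SpG, 0.0414 in pL, 0.111 in eL/L/Z, 0.111 in L/Z/eP, 0.0516 in mP/lP, 0.0869 in D, 0.0428 in RS and 0.469 in ES, with 0.235 in Sertoli cells and 1.42 in other somatic cells. The linker gene Hist1h1c (H1.2) was 0.0584 in undifferentiated SpG, 0.0396 in RS, 0.194 in ES and 0.560 in other somatic cells. Both were thus highest in other somatic cells and, among germ cells, in ES. The summed Leydig markers were 0.759 in RS, 5.56 in ES and 214 in other somatic cells, and the Sertoli markers 1.10, 8.37 and 13.1. Their part in the ES values was not tested.

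Some core genes had their highest germ cell level in spermatids. Hist1h2bp was 0.00633 in undifferentiated SpG, 0.0605 in differentiating SpG, listed at 0 in pL, and 0.0397 in mP/lP, 0.122 in D, 0.316 in RS and 0.168 in ES, with 0.00261 in Sertoli cells. Hist1h4a was 0.00498 in undifferentiated SpG, 0.0305 in differentiating SpG, 0.0113 in pL and 0.0235 in mP/lP, 0.0661 in D, 0.183 in RS and 0.119 in ES. Both were highest in RS, a stage before the peak of H1fnt and H2al2a, and in differentiating SpG both were above their levels in undifferentiated SpG, pL and mP/lP. The round spermatid markers moved with this, at a sum of 1.89 in differentiating SpG, 0.0408 in pL and 9.97 in RS. The same share of the RS level (19.0%) would be 0.0601 for Hist1h2bp and 0.0347 for Hist1h4a, beside 0.0605 and 0.0305 measured in differentiating SpG. With the ES share given above taken off instead, their values there came to 0.0512 and 0.0228. The part of spermatid RNA in these values was not tested. Hist3h2a was 0.0515 in undifferentiated SpG, 0.159 in mP/lP and 0.166 in ES, with 0.151 in other somatic cells. Hist2h2be was highest in mP/lP (0.121). Others were highest early among germ cells: Hist1h4i (0.0810) and the linker gene Hist1h1a (0.0656) in differentiating SpG, and the linker gene Hist1h1e in pL (0.0356). Among germ cells, Hist1h2be (0.0635) and Hist2h3c1 (0.0453) were highest in ES, but both were higher in Sertoli cells (0.0651 and 0.104) and in other somatic cells (0.0749 and 0.0778).

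Replication genes with an annotated transcript that goes on past the stem-loop or has a poly(A) signal near its end had more RNA. In 27 of 64, a coding transcript extended more than 100 bases past the stem-loop or had AATAAA or ATTAAA in its last 50 bases. Their mean level over 13 populations had a median of 0.0158, against 0.00222 for the other 37, and they gave 61.4% of the summed replication RNA. Of the 10 replication genes that reached 0.05 in a germ cell population, 8 were among the 27, and Hist1h1a and Hist1h2bc were not. Without Hist1h2bc, the remaining 36 gave 16.8% of the summed RNA.

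These transcripts were also longer and easier to map. The median length of the longest transcript was 1254 bases against 473. The median share of 71-base stretches found in no other gene was 76.6% against 34.3%, and only reads that mapped to 1 place had been kept. Per kilobase, the median mean level was 0.00853 against 0.00529, beside 0.616 for replacement variants and 0.0128 for germline variants. Under 50% of stretches were unique in 29 of 64 replication genes, in 0 of 10 replacement variants and in 4 of 17 germline variants (H2al1a, H2al1b, H2al1k and H2al1m), so values of these near-identical copies are uncertain. Tail, length and uniqueness cannot be told apart here.

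**Figure D3:**
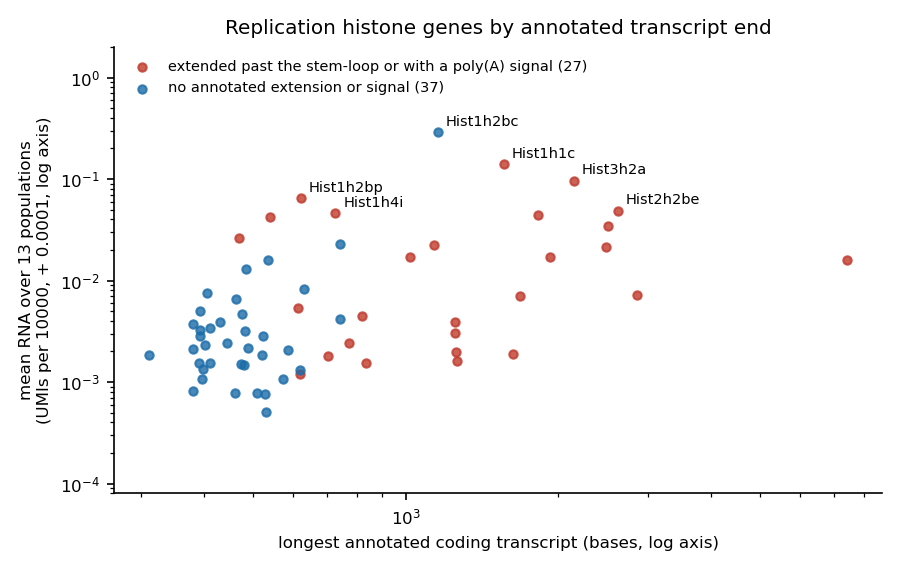
Mean RNA level over 13 populations (UMIs per 10000, log axis) of the 64 replication genes against the length of the longest annotated coding transcript (bases, log axis), coloured by whether it extends past the stem-loop or has a poly(A) signal (27 genes) or neither (37 genes). The 27 are at least 470 bases long, and Hist1h2bc is the highest point of the 37.

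Neighbouring germ cell populations were compared by size alone. A member was called where the ratio of levels, each plus 0.1, was at least 2-fold and the mean of both levels at least 0.05. From undifferentiated to differentiating SpG, 4 of 15 members past the minimum were higher, H1fnt (3.02-fold), H2al2a (2.83-fold), H1fx (2.54-fold) and H1f0 (2.34-fold), against 10.2% of all genes. H2afy2 (4.32-fold) and H2afy (2.66-fold) were lower, against 7.05% of all genes. From differentiating SpG to pL, H3f3a was higher (2.83-fold, 1 of 16, against 1.42%), and H1fnt and H2al2a were lower (2 of 16, against 12.1%). With the spermatid share taken off differentiating SpG, an alternative chosen after seeing the data, H1fnt came to 0 and H2al2a to 0.0395 there, and neither was called at either step. H1fx and H1f0 (2 of 12, against 8.5%) and H3f3a (1 of 14, against 2.05%) were still called higher, and H2afy2 and H2afy lower (2 of 12, against 7.77%).

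No member was called at the next 3 steps. From pL to eL/L/Z 0 of 14 were called, against 5.17% of all genes higher and 0.693% lower. Between eL/L/Z and L/Z/eP it was 0 of 14, against 6.04% and 4.4%, and from L/Z/eP to mP/lP 0 of 16, against 1.57% and 4.03%. H3f3a had the largest ratio among them, 1.75-fold lower in eL/L/Z than in pL, and H2afx was 1.64-fold higher in mP/lP than in L/Z/eP.

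Calls returned from diplotene onward. From mP/lP to D, H1fnt (2.12-fold) and H2afy2 (2.05-fold) were higher (2 of 16, against 5.42%) and H2afx was 2.08-fold lower (1 of 16, against 0.202%). From D to RS, H2al2a (2.27-fold), H1fnt (2.19-fold) and H2afy2 (2.10-fold) were higher (3 of 19, against 11.8%), and 0 of 19 were lower, against 3.41%. From RS to ES, Hist1h2bc (3.99-fold), H1fnt (3.77-fold), H2al2a (3.20-fold) and Hist1h1c (2.11-fold) were higher (4 of 21, against 10%), and H2afy2 was 2.83-fold lower (1 of 21, against 11.3%). Of the histone supply genes, the 12 of exchange and removal summed to 27.1 in D, 45 in RS and 133 in ES. The rise lay in Tnp1, Tnp2, Prm1, Prm2 and Hils1, which encode transition proteins, protamines and a spermatid linker histone (11.9, 30.9 and 121), whereas the other 7 summed to 15.2, 14.1 and 12.2. The 18 chaperones summed to 38.1, 26.7 and 24.0.

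To ask how histone genes stand where Nfya was targeted, SpG of the library labelled Nfya-CKO (491 cells) were set against control undifferentiated SpG (1292 cells). The RNA level of Nfya was 1.11 in the former and 0.456 in the latter, so the targeted gene did not have less RNA in the former. The RNA value covers the whole gene and does not isolate the deleted part. By Western blot and immunohistochemistry, the paper found NFYA protein depleted in germ cells of Nfya-CKO testes. The scATAC-seq level of Nfya was 58.7 in the former population and 83.1 in the latter. The former were from 8-week-old mice and the latter mostly juvenile, and genotype, age and library cannot be told apart.

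Both H3.3 genes were lower in SpG of the library labelled Nfya-CKO. H3f3b was 1.46 against 4.12 (2.71-fold), a value below that of each of the other 12 populations. H3f3a was 0.371 against 1.27 (2.91-fold), and H2afy2 was 0.380 against 0.904 (2.09-fold). These were 3 of 13 members past the minimum, against 3.4% of all genes. H2afx was 0.303 against 0.600, which did not reach 2-fold, and H2afv was 2.74 against 2.98.

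H1f0 was higher (1.27 against 0.541, 2.14-fold), as was Hist1h2bc (0.230 against 0.0639, 2.02-fold), 2 of 13 against 4.76% of all genes. H2afj was 0.426 against 0.163, just under the limit (1.999-fold). Somatic RNA moved with this comparison. The 4 Leydig markers Insl3, Cyp17a1, Hsd3b1 and Star summed to 48.4 in SpG of the library labelled Nfya-CKO, 0.172 in control undifferentiated SpG and 214 in other somatic cells. That is 22.6% of the level in other somatic cells, and the same percentage of the level there is 0.320 for Hist1h2bc and 0.276 for H1f0. With this share taken off, an alternative chosen after seeing the data, Hist1h2bc came to 0 and H1f0 was still called higher (1.29). H3f3b (0.723) and H3f3a (0.347) were still called lower, H2afx was called lower, and H2afy2 was no longer called. The share depends on the markers: peritubular markers summed to 0.156 in SpG of the library labelled Nfya-CKO and 4.66 in other somatic cells, Sertoli markers to 3.01 and 13.1. H1fnt was listed at 0, and its Leydig share would be 0.0346. The part of somatic RNA in these values was not tested.

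Some directions turned with the control population. H3f3b was called lower against differentiating SpG and pL too. H3f3a was called lower against pL, but not against differentiating SpG (0.371 against 0.621). H2afy2 was higher in SpG of the library labelled Nfya-CKO (0.380) than in differentiating SpG (0.132) or pL (0.102). H1f0 was lower there (1.27) than in differentiating SpG (1.40).

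**Figure D4:**
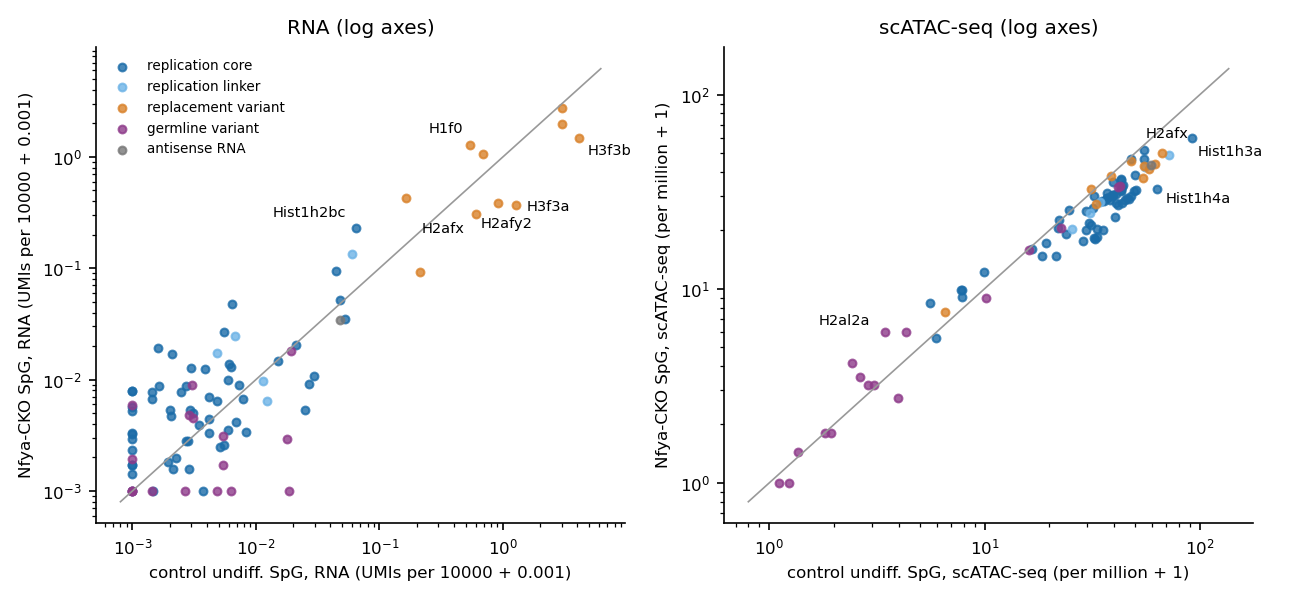
Each of 92 members in control undifferentiated SpG (x axis) and SpG of the library labelled Nfya-CKO (y axis), for RNA (UMIs per 10000) and scATAC-seq (per 1000000), on log axes with a line of equal values and colours for class. H3f3b and H3f3a lie below the line for RNA, and 72 of 87 members past the minimum lie below it for scATAC-seq, as do 53.8% of all genes.

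The scATAC-seq levels are scaled to a sum of 1000000 per population with mitochondrial genes included, and levels of different genes are not ranked. The methods of the study define promoter accessibility as coverage around the start site in its genome tracks, but whether the deposited matrix counts that window is not stated. Mitochondrial genes held different shares of each population, so the levels were also scaled without them. The median of core genes was 35.9 in undifferentiated SpG, 30.7 in differentiating SpG, 40.5 in pL, 33.1 in eL/L/Z, 18.1 in L/Z/eP, 15.5 in mP/lP, 20.7 in D, 20.5 in RS and 20.8 in ES. The median of all nuclear genes was 12.1, 8.56, 9.81, 6.95, 4.42, 4.88, 7.18, 9.45 and 8.63 in the same order. Among germ cells the core median was highest in pL on this scale. Without mitochondrial genes it was 60.5, 47.2, 58.9, 60.7, 50.1, 39.1, 40.2, 34.4 and 36.9, and that of all nuclear genes 20.4, 13.2, 14.3, 12.7, 12.2, 12.3, 14, 15.8 and 15.3. The core median was then highest in eL/L/Z, close to undifferentiated SpG and pL, and lowest in RS, so the stage at which it peaked depends on the scaling. Replacement variants had a median of 50.3 in undifferentiated SpG, 78.9 in pL, 40.0 in mP/lP and 56.8 in RS. Germline variants had medians from 1.28 in pL to 4.65 in RS. Without mitochondrial genes, the replacement median was highest in L/Z/eP (119) and the germline median in mP/lP (10.9).

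Of 90 members with signal, 42 had their highest germ cell level in pL, against 22.6% of all genes. These were 36 of 59 core genes, 1 of 5 linker genes, 4 of 10 replacement variants and 1 of 15 germline variants. From undifferentiated SpG to pL, 30 of 86 members past the minimum were at least 1.5-fold higher, against 8.39% of all genes, and 10 were at least 1.5-fold lower, against 9.58%. Without mitochondrial genes in the scaling, counts added after seeing the data, 14 of 92 members were highest in pL, against 6.45% of all genes, and 16 of 89 were higher in pL than in undifferentiated SpG, against 3.10%, while 18 were lower, against 18.3%. Hist3h2a went from 46.9 to 117, H1f0 from 37.6 to 80.9 and Hist1h2aa from 40.7 to 86.2. Hist1h3a had scATAC-seq levels of 90.8 in undifferentiated SpG, 164 in pL and 44.6 in mP/lP, and RNA levels of 0.0140, 0.00638 and 0.00865.

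Germline variants differed in when they were open. Hist1h2aa had scATAC-seq levels of 40.7 in undifferentiated SpG, 84.1 in differentiating SpG, 86.2 in pL, 89.1 in eL/L/Z, 65.1 in L/Z/eP, 72.8 in mP/lP, 82.8 in D, 70.0 in RS and 68.6 in ES, beside 14.2 in Sertoli cells and 19.2 in other somatic cells. On either scale, the locus of TH2A and TH2B had a higher level in each germ cell population than in Sertoli or other somatic cells. In unknown cells it was 53.4, above undifferentiated SpG. H1fnt was 9.13 in undifferentiated SpG, 2.50 in L/Z/eP, 10.3 in D, 20.7 in RS and 21.2 in ES, with 2.02 in Sertoli cells, so its highest RNA and scATAC-seq levels fell in the same stage, on either scale. H2al2a, also highest for RNA in ES, had its highest scATAC-seq level in RS (8.23) on either scale and was listed at 0 in ES. Hist1h1t ranged from 12.6 in ES to 32.0 in eL/L/Z (highest in L/Z/eP without mitochondrial genes), with 16.9 in Sertoli cells. The ES values rest on 124 cells.

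**Figure D5:**
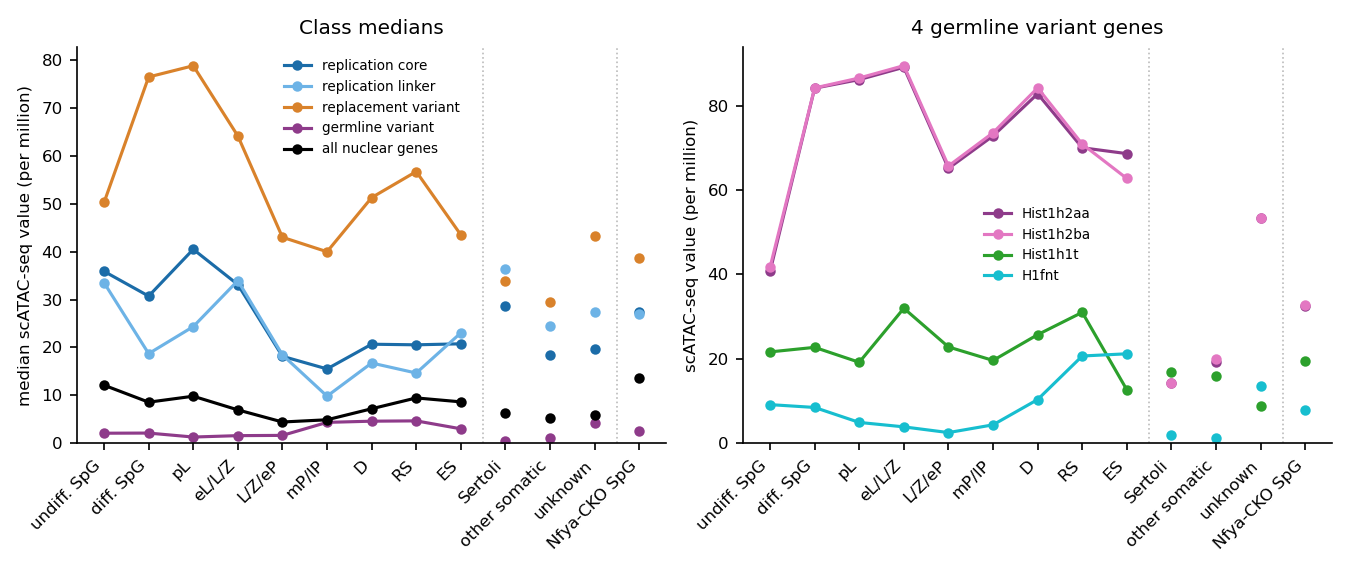
Median scATAC-seq level of each class and of all nuclear genes (left, per 1000000) and levels of germline variant genes (right, per 1000000) in the 13 populations. With mitochondrial genes in the scaling, as drawn, core genes are highest in pL (40.5) and lowest in mP/lP (15.5) among germ cells, whereas without them they are highest in eL/L/Z (60.7) and lowest in RS (34.4), and Hist1h2aa and Hist1h2ba nearly overlie each other.

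Histone genes were less accessible in SpG of the library labelled Nfya-CKO than in control undifferentiated SpG. Of 87 members past the minimum, 17 were at least 1.5-fold lower, against 5.79% of all genes, and 3 were higher, against 10%. The median ratio of members was 0.792, beside 0.973 for all genes. The 17 were all core genes of the Hist1 cluster, including both genes of 3 head-to-head pairs. Some neighbours further apart were also lowered alike, such as Hist1h2bh (17.4 against 32.2) and an adjacent core H3 gene (19.3 against 32.4). The 17 are therefore not all separate measurements. Of core genes, 52 of 59 had a ratio below 1, as had 72 of 87 members and 53.8% of all genes. Linker genes (5 of 5) and replacement variants (8 of 10) were also below 1, with none past 1.5-fold. Germline variants had a median ratio of 1.01, with 6 of 12 past the minimum below 1. Their levels were mostly low, with a class median of 2.08 in control undifferentiated SpG. Hist1h2aa and Hist1h2ba, which face each other and had the highest levels of the class there, were 32.4 against 40.7 and 32.8 against 41.7. With mitochondrial genes left out of the scaling, 8 members were lower, against 3.82% of all genes, and the median ratio was 0.868 for members and 1.07 for all genes.

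Hist1h4a had the largest ratio, with 31.7 against 62.3 per 1000000 (1.94-fold lower). Hist1h2bh was 17.4 against 32.2 (1.80-fold lower) and Hist1h2ak 17.1 against 31.5 (1.79-fold lower). The H3.3 genes, which were lower for RNA, were 40.6 against 57.3 (H3f3a) and 6.57 against 5.56 (H3f3b). In control undifferentiated SpG the H3f3b level lay under the median of all nuclear genes (12.1), despite an RNA level of 4.12. These values cannot tell whether its promoter was covered, so they do not show that its accessibility was kept. The higher members were Hist1h2bq, H2al1n and H2al2a, none above 7.43 per 1000000 in either population.

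Replication promoters with and without CCAAT were set side by side. The 49 with CCAAT had a median scATAC-seq ratio of 0.767 (range 0.517 to 1.51), and the 9 without, all H4 genes, 0.925 (range 0.690 to 1.26). The ranges overlap, and the groups also differ in histone type and in level (median 37.4 against 22.9 per 1000000 in control SpG), so the part of CCAAT was not tested. The mean TSS enrichment, a measure of data quality per cell, was 7.99 in SpG of the library labelled Nfya-CKO and 12.7 in control undifferentiated SpG, and its part in the lower levels was not tested.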

How the data were processed

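Nuclei of 5 libraries per assay were sequenced by the authors for RNA and accessible chromatin. Per the labels and the methods of the study, RNA reads were aligned to mm10 with STAR 2.7.10b, uniquely mapped reads were kept, UMIs were collapsed, and cells and doublets were filtered with Seurat 5.2.1 and DoubletFinder. The scATAC-seq fragments were aligned with BWA 0.7.12, shifted for the transposase and filtered with ArchR 1.0.3. The authors deposited both matrices as the natural log of 1 plus a mean per population. In the RNA matrix, the lowest value matched 1 UMI of a cell in 13 of 13 populations. Per-cell tables deposited by the authors gave UMI and fragment counts and TSS enrichment, a ratio of coverage at start sites over flanks. A further 14 per-cell columns were not used, and 49 cells carried no library name.

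Values were turned back with the exponential minus 1, and scATAC-seq columns were rescaled to 1000000, of which the 13 mitochondrial genes held 40.6% in control undifferentiated SpG and 46.0% in SpG of the library labelled Nfya-CKO. With 1 library per condition, calls rest on size: for RNA 2-fold, a pseudocount of 0.1 and a mean of at least 0.05, and for scATAC-seq 1.5-fold, 1 and 1. Folds on a value plus a pseudocount understate changes of low genes. Named were replacement and germline variants with a mean of at least 0.05, the 8 core and 3 linker genes with the highest mean, and in each comparison the 3 members with the largest ratio. Members and lists were chosen with earlier results of these data known. Python 3.11.15, numpy 2.4.6 and pandas 2.3.3 were used, and scripts were tested on simulated data.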

Additional observations from a re-analysis of the deposited data

How the results depend on the processing

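Of 124 alternative values, 72 stayed within 1.5-fold of the reported value or kept their direction and size, 48 moved further and 4 turned direction. No paired analysis was possible because each condition is 1 library, and for that reason no replicate could be left out. The highest germ cell sum was 3.46 for the core class with H2afx counted in it (mP/lP), 0.109 for the linker class without Hist1h1c (in pL instead of ES), 10.6 for the replacement class without H3f3b and 3.06 for the germline class without H1fnt. Members highest in RS or ES numbered 36 of 92 with no minimum (40.0% of all genes) and 4 of 12 with a minimum of 0.2 (28.4%). Over the 8 steps, higher calls numbered 26 with a pseudocount of 0.01, 2 with 1, 9 with a minimum of 0.2, 31 at 1.5-fold and 0 at 4-fold, and lower calls 0 with a pseudocount of 1, 13 at 1.5-fold and 1 at 4-fold. For RNA in SpG of the library labelled Nfya-CKO, higher members numbered 4 with a pseudocount of 0.01, 0 with 1, 1 with a minimum of 0.2, 0 at 4-fold, 1 with the median ratio of all genes set to 1 and 1 less the Leydig share. Lower members numbered 1 with a pseudocount of 1 (H3f3b), 5 at 1.5-fold and 0 at 4-fold. No share over all genes was taken for these RNA calls, so the counts show only how calls depend on the setting. The log2 ratio of H2afy2 turned to 1.05 against differentiating SpG and 1.248 against pL, that of H1f0 to -0.13 against differentiating SpG and that of Hist1h2bc to -0.71 less the Leydig share. For scATAC-seq, the germline median in RS was 7.79 when scaled without mitochondrial genes. Higher members in SpG of the library labelled Nfya-CKO numbered 0 with a pseudocount of 5 (1.503% of all genes), 7 at a lower fold (21.9%), 0 at 2-fold (1.79%), 6 against differentiating SpG (22.5%) and 6 against pL (20.6%), each of 87. Lower members numbered 8 without mitochondrial genes (3.82% of all genes), 48 at that lower fold (22.0%), 0 at 2-fold (0.451%), 35 against differentiating SpG (26.4%) and 46 against pL (24.7%). Without mitochondrial genes, 14 members were highest in pL, and from undifferentiated SpG to pL 16 were higher and 18 lower. Fewer or more genes pass another fold or minimum by construction, and otherwise the cause was not tested. Of 64 replication genes, 3 were at or under the value of 3 UMIs in cells of median depth in all 9 germ cell populations.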
